A study of Mus musculus with 7 samples.

Results

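Chromatin accessibility was examined at the genes of 7 families of developmental transcription factors in the livers of young and aged mice. The members were the 104 protein-coding genes of GENCODE M21 whose symbols begin with Hox (clusters a to d), Lhx, Nkx, Pax, Sox or Tbx followed by a number, or name the sine oculis homologues (Six5 and its relatives), without Pax5, Sox4, Sox9 and Tbx3. Every accessible region that overlapped the body of such a gene, or the 2 kb on either side of it, was taken, which gave 114 of the 55680 regions measured. The regions lay at 48 of the 104 genes. The rule goes by gene symbol and position, and it was set with earlier results of these data known. The data were ATAC-seq libraries, in which a transposase inserts sequencing adapters into exposed DNA, from liver nuclei of male C57BL/6N mice without treatment. The young group held 3 samples from mice aged 3 months and the aged group held 4 samples from mice aged 18 months. The aged samples came from 3 animals, 1 of which was sampled in 2 lobules, and the labels do not say which samples share that animal, so p-values measure the spread between these samples, part of which may be technical. Counts in regions summed to between 4474652 and 25461110 per library.

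The families studied here encode factors that bind DNA through a homeodomain, a paired domain, a high mobility group box or a T-box, and that set the identity of segments, organs and cell lineages in the embryo. In adult tissues most of these genes are silent, and many are held so by Polycomb complexes at promoters rich in CpG dinucleotides. The Hox genes lie side by side in clusters and are expressed along the body axis in the order of their position. In the adult liver a few members of these families are known from cells other than hepatocytes: Sox7, Sox17 and Sox18 from endothelium, Lhx2 from stellate cells and Hoxb4 from blood progenitors.

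Sequences are shown for 7 of the regions on which the results turn, 4 with decreased and 3 with increased accessibility in aged liver. Each is a stretch of 180 bases within the region, read from the GRCm38 sequence on the strand of the gene from 5′ to 3′, with CpG dinucleotides in capitals. Of the regions that overlap a promoter, the stretches shown begin 202 bp (Sox15) and 314 bp (Nkx2-4) downstream of the nearest annotated start, and those of Sox5 and Hoxd4 lie upstream of it. The regions that decreased were these:
Sox21, stretch of the exon region, chr14:118235273-118235452, minus strand: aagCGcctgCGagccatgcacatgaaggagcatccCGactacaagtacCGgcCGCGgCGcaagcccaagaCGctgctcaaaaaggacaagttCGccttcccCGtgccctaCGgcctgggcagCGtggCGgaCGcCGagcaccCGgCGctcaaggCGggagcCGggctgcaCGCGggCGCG
Nkx2-4, stretch of the promoter region, chr2:147084952-147085131, minus strand: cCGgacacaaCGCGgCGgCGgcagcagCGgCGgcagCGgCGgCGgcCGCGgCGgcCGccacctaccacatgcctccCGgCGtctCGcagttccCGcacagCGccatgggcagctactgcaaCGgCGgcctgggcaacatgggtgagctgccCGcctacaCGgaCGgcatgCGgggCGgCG
Sox15, stretch of the promoter region, chr11:69655516-69655695, plus strand: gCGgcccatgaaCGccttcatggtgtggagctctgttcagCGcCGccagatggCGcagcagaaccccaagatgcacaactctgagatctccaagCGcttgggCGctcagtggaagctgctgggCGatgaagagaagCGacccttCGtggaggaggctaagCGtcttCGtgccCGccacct
Sox5, stretch of the promoter region, chr6:144782113-144782292, minus strand: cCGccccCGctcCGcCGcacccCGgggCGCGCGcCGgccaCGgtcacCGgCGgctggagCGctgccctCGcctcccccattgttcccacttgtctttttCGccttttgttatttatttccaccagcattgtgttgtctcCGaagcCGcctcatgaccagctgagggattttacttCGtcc
These 4 stretches held 23, 27, 13 and 18 CpG dinucleotides. The regions that increased were these:
Hoxd4, stretch of the promoter region, chr2:74726548-74726727, plus strand: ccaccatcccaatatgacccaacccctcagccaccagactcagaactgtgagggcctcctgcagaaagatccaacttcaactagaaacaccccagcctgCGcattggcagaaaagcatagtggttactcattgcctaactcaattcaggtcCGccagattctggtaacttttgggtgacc
Sox5, stretch of the intron region, chr6:144056876-144057055, minus strand: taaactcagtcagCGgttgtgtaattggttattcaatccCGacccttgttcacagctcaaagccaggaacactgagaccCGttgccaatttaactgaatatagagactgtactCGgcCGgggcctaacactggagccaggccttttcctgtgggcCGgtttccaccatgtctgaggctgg
Pax3, stretch of the downstream flank region, chr1:78099924-78100103, minus strand: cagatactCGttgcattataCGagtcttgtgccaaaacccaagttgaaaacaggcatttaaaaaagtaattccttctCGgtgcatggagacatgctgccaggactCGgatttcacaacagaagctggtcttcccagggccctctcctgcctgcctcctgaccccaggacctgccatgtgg
These 3 stretches held 2, 6 and 4 CpG dinucleotides. Over the whole regions, those of Sox21, Nkx2-4 and Sox15 were CpG-rich (CpG observed over expected of at least 0.6 and GC content of at least 50%), and none of the 3 regions that increased was. The other 6 of the 9 regions that decreased were not CpG-rich, so the share among them, 3 of 9, was the same as the 33.3% of all members, and the stretches shown are not a sample of the 9.

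Accessibility decreased with age at 9 of the 114 member regions and increased at 3, with an adjusted p under 0.05 in edgeR's quasi-likelihood test over all regions. Over all 55680 regions, 3.30% decreased and 2.44% increased in this test, or 5.74% in all. The balance over all regions depended on the method, with 42.5% of the regions that passed increased here, 58.8% with DESeq2, 74.9% with GC offsets and 15.6% with total counts, while of the members 3, 6 and 0 increased and 10, 9 and 14 decreased in those fits. The 12 regions made up 10.5% of the members and belonged to 9 genes, since 4 of them lay in Sox5. Without the regions of Sox5, 8 of 88 passed. The count rested on single libraries: it was 0 without young replicate 1, without young replicate 2 or without aged replicate 1, and 1 without aged replicate 3, fits in which the share of all regions that passed was also only 0.338%, 0.801%, 0.722% and 1.17%. At an unadjusted p under 0.05 it was 23, 29, 29 and 28 in those fits against 30 with all samples. With all samples, 13699 of all 55680 regions had such a p-value. With offsets fitted on region strength 3 passed (Pax3, Sox13 and Hoxd4; 1.22% of all regions), and with any pair of aged samples summed, as if from the shared animal, 2 to 18 passed (1.73% to 8.52% of all regions). Outside these 12, another 10 regions had adjusted p-values between 0.05 and 0.1, and 8 of them had lower values in aged liver. In bulk tissue, fewer cells of one type and less accessible chromatin per cell cannot be told apart.

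The median log2 fold change (aged over young) of the member regions was -0.17, which became 0.03 with offsets fitted on the strength of the regions. Below 0 lay 72 of 114, beside 29751 of all 55680 regions, while 59 of 114 lay above 0 with those offsets. The median over all regions was -0.04, and 0.01 with those offsets. The summed accessibility of the 114 regions nevertheless differed little between samples. It was 1274, 1273 and 1272 CPM (counts scaled to library size, TMM-normalized) in young replicates 1 to 3 and 1227, 1228, 1231 and 1265 CPM in aged replicates 1 to 4. Every aged sample lay below every young one, by a small margin. Over all regions the sums under this scaling were 938764 to 962312 CPM in young and 1001870 to 1068820 CPM in aged samples. The size of the members' margin therefore depends on the scaling. In single regions, every aged sample lay above every young sample at 10 members and below at 21, while over all regions this held for 10.2% and 11.6%.

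**Figure D1:**
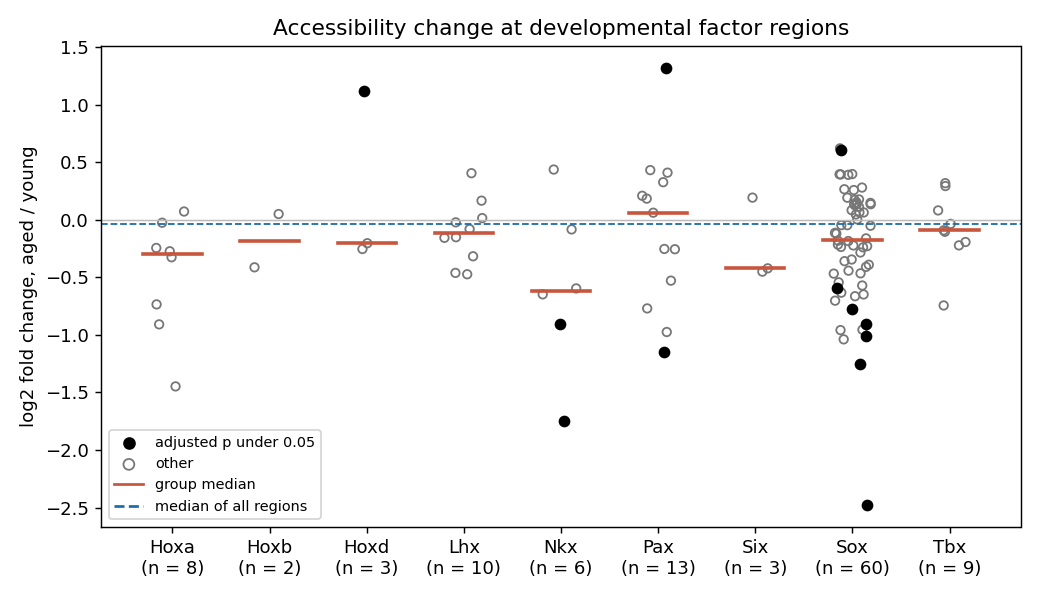
The log2 fold change of each member region (aged over young) is plotted by family or Hox cluster, with filled points for the 12 regions with an adjusted p under 0.05, an orange bar for the median of each group and a dashed line for the median of all 55680 regions. The Nkx median of -0.62 is the lowest and the Pax median of 0.06 the highest, and the Pax median is -0.05 when libraries are scaled by total counts, which also lowers the median of all regions from -0.04 to -0.15.

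The Hox genes were seldom found among the accessible regions of liver. A region lay at 13 of 39 Hox genes (33.3%) and at the promoter (within 200 bp of an annotated start) of 5 of them, while 68.9% of all 21938 protein-coding genes had a region and 59.4% had one at a promoter. By cluster, 7 of 11 Hoxa genes, 2 of 10 Hoxb genes, 4 of 9 Hoxd genes and 0 of 9 Hoxc genes had a region. Of the other families, Lhx had regions at 6 of 8 genes, Nkx at 5 of 14, Pax at 6 of 8, the sine oculis homologues at 2 of 6, Sox at 10 of 17 and Tbx at 6 of 12. A gene without a region had no interval with a peak in 2 or more libraries, and at this depth weaker accessibility there was not measured. Among the genes without one were Tbx21, which encodes the T-bet factor of T helper and natural killer cells, and Nkx2-3, a factor of gut and spleen vessels.

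Of the 13 regions in Hox clusters, 1 passed the test, and it increased. This region (chr2:74726421-74727180) lies at a promoter of Hoxd4, which patterns the hindbrain and the upper vertebrae, and also within an intron of Hoxd3 and at a promoter of the noncoding Gm28230. Its values were 2.59, 4.57 and 2.63 CPM in young replicates 1 to 3 and 10.2, 7.65, 5.14 and 6.11 CPM in aged replicates 1 to 4. The ages did not overlap, and aged replicate 1 was the highest. The young mean was 3.27 ± 1.1 (SD, n = 3) and the aged mean 7.27 ± 2.2 CPM (SD, n = 4), an increase by a log2 fold change of 1.11 ± 0.30 (SE, edgeR adjusted p = 0.0454). The log2 fold change was 0.88 without aged replicate 1 and 1.5 without young replicate 2, with an adjusted p above 0.05 in both. The 2 other Hoxd regions, one upstream of Hoxd12 and one in an intron of Hoxd3, had log2 fold changes of -0.25 ± 0.33 and -0.20 ± 0.34 (SE).

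None of the 8 Hoxa regions passed the test, and 7 of them lay below 0, with a median log2 fold change of -0.30 that remained negative under each of 4 other scalings (-0.42 to -0.09). The region at the promoter of Hoxa7, which also lies beside Hoxa9, a factor of blood stem cells, held 6.94, 4.88 and 5.75 CPM in young and 3.43, 4.12, 3.03 and 1.91 CPM in aged samples. The ages did not overlap, but the log2 fold change of -0.91 ± 0.29 (SE) had an edgeR adjusted p of 0.0743. The smallest region of the cluster by signal, in an exon of Hoxa4 and chosen after its values were seen, held 3.15, 2.42 and 1.32 CPM in young and 0.879, 0.392, 0.934 and 1.15 CPM in aged samples (log2 fold change -1.45 ± 0.41, SE, adjusted p = 0.0546). The strongest Hoxa region, in an exon of Hoxa3, did not separate the ages, at a young mean of 9.64 ± 1.23 (SD, n = 3) against an aged mean of 9.66 ± 2.55 CPM (SD, n = 4). The promoter region of Hoxa5, a regulator of lung and thoracic development, was at 5.75 ± 0.787 and 4.8 ± 1.28 CPM (log2 fold change -0.27 ± 0.26, SE). In the Hoxb cluster, the exon of Hoxb4 was at 4.54 ± 0.445 CPM in young and 4.72 ± 1.80 CPM in aged liver, within the spread of the samples. The 13 Hox regions together had a median of -0.25, which turned to 0.06 with offsets on region strength, and their summed CPM was 48.5 to 64.7 in young and 41.8 to 62.1 in aged samples.

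**Figure D2:**
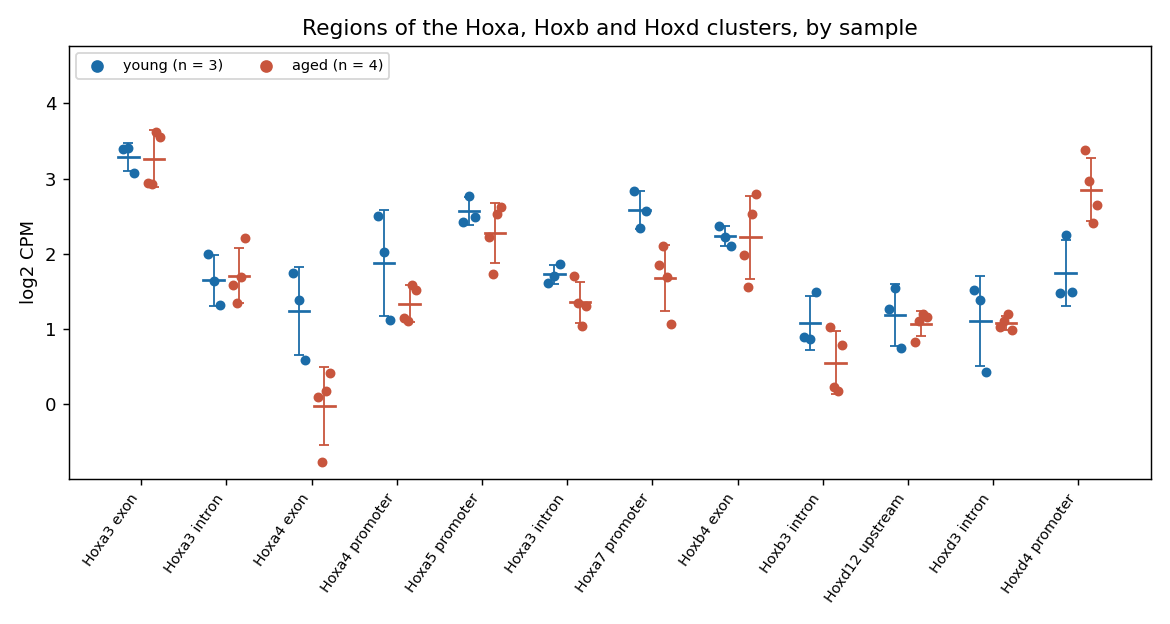
The log2 CPM of 12 of the 13 regions in the Hoxa, Hoxb and Hoxd clusters is shown for each young sample (blue, n = 3) and aged sample (orange, n = 4), with bars for the mean ± SD. The ages separate at the exon of Hoxa4 and the promoters of Hoxa7 and Hoxd4, and only at Hoxd4 is the aged group the higher one and the adjusted p below 0.05.

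The Sox family held 60 of the 114 regions, and 26 of those lay in Sox5 and 21 in Sox6. Both genes are long and encode SoxD factors, which lack an activation domain of their own and act with Sox9 in cartilage. In Sox5, 3 regions decreased and 1 increased, and in Sox6 none of 21 passed the test. No Sox6 region had an unadjusted p under 0.05, and the medians were -0.19 for Sox5 and -0.05 for Sox6, of which the Sox5 median turned to 0.01 and the Sox6 median to 0.18 with offsets on region strength.

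The 3 regions of Sox5 that decreased lay close to its most upstream start. The promoter region there (chr6:144780761-144783644) held 34.2, 23.7 and 29.3 CPM in young replicates 1 to 3 and 11.3, 14.7, 8.87 and 22 CPM in aged replicates 1 to 4. The ages did not overlap; aged replicate 4 came closest to the young samples. The young mean was 29.1 ± 5.26 (SD, n = 3) and the aged mean 14.2 ± 5.72 CPM (SD, n = 4), which gave a log2 fold change of -1.01 ± 0.24 (SE, edgeR adjusted p = 0.0292). The intron region at 22.5 kb from that start held 12.5, 13.0 and 14.0 CPM in young and 8.26, 7.85, 5.84 and 8.27 CPM in aged samples, again without overlap (log2 fold change -0.78 ± 0.19, SE, adjusted p = 0.0316). The intron region at 71.8 kb held 20.5, 17.6 and 21.5 CPM in young and 8.17, 10.8, 7.0 and 15.9 CPM in aged samples (log2 fold change -0.90 ± 0.23, SE, adjusted p = 0.0392). Here too aged replicate 4 was the aged sample nearest to the young ones.

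At the other end of Sox5 one region rose. The intron region at 725.0 kb from the start (chr6:144056236-144057695) held 24.4, 27.2 and 24.2 CPM in young and 42.5, 43.3, 36.7 and 31.6 CPM in aged samples. Every aged sample lay above every young one, with means of 25.3 ± 1.68 (SD, n = 3) and 38.5 ± 5.51 CPM (SD, n = 4) and a log2 fold change of 0.60 ± 0.14 (SE, edgeR adjusted p = 0.0260). A neighbouring intron region at 714 kb, chosen after its values were seen, had a log2 fold change of 0.62 ± 0.21 (SE) and an adjusted p of 0.0887.

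Split at 200 kb, a point chosen after the values were seen, the 8 regions on the upstream side of Sox5 all lay below 0 (median -0.70), also with total counts and GC offsets, while 2 of the 8 lay above 0 with offsets on region strength. Their summed CPM was 103, 82.4 and 95.4 in young replicates 1 to 3 and 45.0, 53.7, 40.2 and 80.7 in aged replicates 1 to 4. The 18 regions farther along, from 278 to 765 kb, had a median of 0.10, with 11 above 0. With total counts it was -0.02, while the median of all regions moved from -0.04 to -0.15. Their summed CPM was 189, 190 and 217 in young and 227, 251, 218 and 204 in aged samples, so the ages overlapped there. The stronger of the internal promoter regions of Sox5, at 572 kb, had a young mean of 41.3 ± 9.65 (SD, n = 3) against an aged mean of 45.5 ± 5.57 CPM (SD, n = 4), with a fold change on the log2 scale of 0.15 ± 0.15 (SE) that turned to -0.05 with offsets on region strength. For Sox6, the strongest promoter region was at 14.8 ± 3.79 and 12.4 ± 0.663 CPM (log2 fold change -0.24 ± 0.19, SE).

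**Figure D3:**
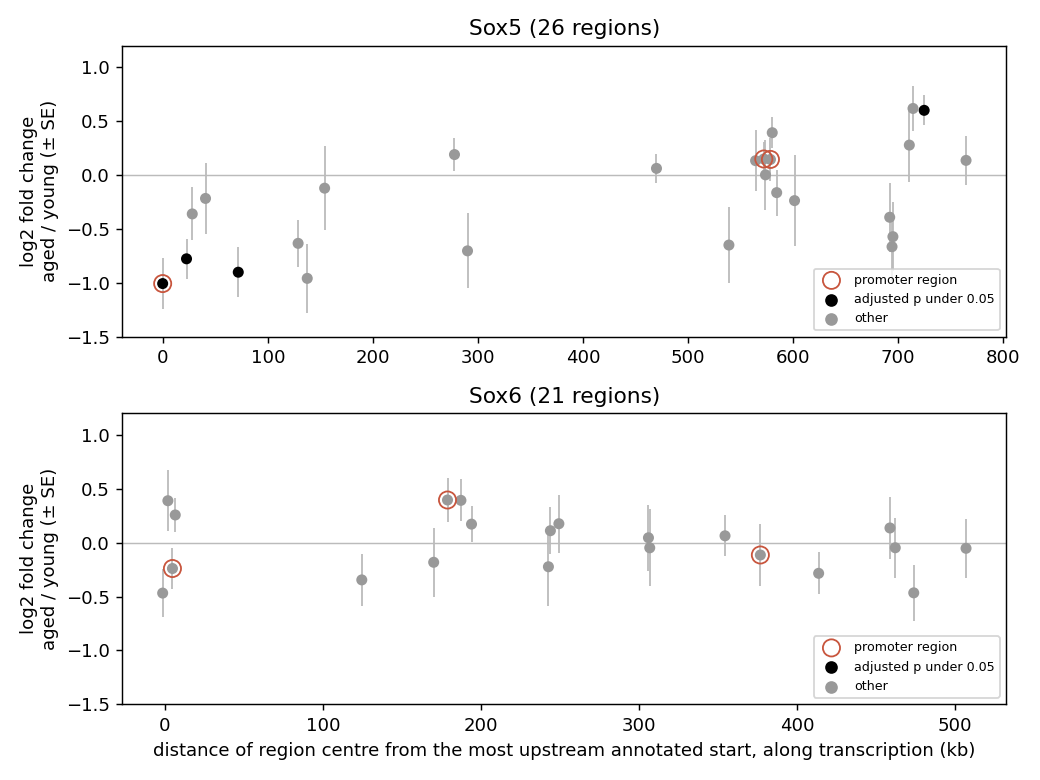
The log2 fold change (aged over young, ± SE) of each region of Sox5 (26 regions) and Sox6 (21 regions) is plotted against the distance in kb of its centre from the most upstream annotated start, along the direction of transcription, with black points for an adjusted p under 0.05 and circles for promoter regions. The 8 Sox5 regions within 200 kb of the start lie below 0, the region at 725.0 kb lies at 0.60, and no Sox6 region is black.

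Outside Sox5, 3 Sox regions decreased. The region with the largest fold change of all members under TMM scaling lay in the exon of Sox21 (chr14:118235178-118235547), a SoxB2 factor of neural progenitors and hair follicles. It held 2.41, 2.00 and 1.48 CPM in young and 0.264, 0.392, 0.233 and 0.509 CPM in aged samples. These are few reads: 88 over the young libraries and 3, 2, 1 and 4 in aged replicates 1 to 4. The ratio of aged to young, from summed counts and effective library sizes, was 0.172 (95% exact interval for counting error only, 0.0797 to 0.332), and the fitted log2 fold change was -2.47 ± 0.45 (SE, edgeR adjusted p = 0.0125). With offsets on region strength it was -1.37 (adjusted p = 0.169), smaller in size than that of Pax3 at 1.89. The promoter region of Sox21, chosen after its values were seen, held 6.20, 5.40 and 4.77 CPM in young and 3.60, 2.75, 1.40 and 2.42 CPM in aged samples, without overlap and with an adjusted p of 0.0521.

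At the promoter region of Sox15 (chr11:69655404-69655807), a SoxG factor known from muscle progenitors, accessibility was 5.37, 5.44 and 4.28 CPM in young and 1.84, 1.77, 2.10 and 2.80 CPM in aged samples. The region begins 90 bp downstream of the annotated start and does not contain it. The ages did not overlap, and the log2 fold change was -1.25 ± 0.28 (SE, edgeR adjusted p = 0.0230). The strongest Sox region (chr1:133381334-133383908) overlapped an exon at the end of Sox13, a SoxD factor of gamma delta T cells, and ran past the end of the gene. It held 80.4, 91.8 and 67.4 CPM in young and 50.5, 45.5, 59.1 and 58.4 CPM in aged samples, again without overlap (log2 fold change -0.59 ± 0.13, SE, adjusted p = 0.0230). Its decrease passed the threshold in 17 of 22 alternative analyses, more than at any other of the 12 regions. The promoter of Sox13 did not follow it, at a young mean of 34.5 ± 3.32 (SD, n = 3) against an aged mean of 36.6 ± 3.68 CPM (SD, n = 4) (log2 fold change 0.08 ± 0.13, SE, and -0.09 with offsets on region strength).

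The Sox genes of the endothelium did not pass the test. The promoter of Sox7 had 37.6, 39.3 and 34.0 CPM in young and 45.2, 44.3, 44.6 and 44.3 CPM in aged samples, all aged values above the young (log2 fold change 0.26 ± 0.11, SE, edgeR adjusted p = 0.150). The promoter of Sox17 was at 6.22 ± 0.629 CPM (SD, n = 3) and 5.16 ± 2.00 CPM (SD, n = 4), where aged replicate 4 stood at 8.15 and the other aged samples at 3.97 to 4.39 CPM. An exon region of Sox17, chosen after its values were seen, held 7.68, 6.73 and 4.28 CPM in young and 3.34, 2.55, 3.03 and 3.95 CPM in aged samples (log2 fold change -0.95 ± 0.27, SE, adjusted p = 0.0536). The promoter of Sox18 overlapped between the ages (2.95 ± 1.1 and 2.26 ± 0.848 CPM). The promoter of Sox12, a SoxC factor, was among the stronger members, by CPM per region, at 45.2 ± 7.21 and 49.4 ± 12.6 CPM, also with overlap.

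Accessibility decreased at 2 of the 6 Nkx regions, and their median log2 fold change was -0.62 (-0.74 to -0.39 under 4 other scalings). The first was the promoter region of Nkx2-4 (chr2:147084797-147085286), a homeodomain factor of the hypothalamus. This region begins 159 bp downstream of the annotated start and does not contain it. Its values were 3.24, 3.82 and 3.29 CPM in young and 0.966, 0.588, 0.700 and 1.65 CPM in aged samples, so that even the highest aged sample lay below all young ones. The log2 fold change was -1.74 ± 0.36 (SE, edgeR adjusted p = 0.0177). The second lay in an exon of Nkx2-2 (chr2:147177811-147178875), a factor of pancreatic beta cells and the ventral neural tube, with 8.24, 5.97 and 8.06 CPM in young and 3.95, 4.90, 3.03 and 3.69 CPM in aged samples (log2 fold change -0.90 ± 0.25, SE, adjusted p = 0.0474). This decrease passed the threshold in 5 of 22 alternative analyses, the fewest of the 12. In contrast, the strongest Nkx region, an exon of the cardiac and pharyngeal factor Nkx2-6, had higher values in every aged sample: 31.5, 33.5 and 29.9 CPM in young and 52.4, 43.3, 39.7 and 35.5 CPM in aged liver (log2 fold change 0.44 ± 0.14, SE, adjusted p = 0.0749).

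Of the 13 Pax regions, 1 increased and 1 decreased. The increase lay downstream of Pax3 (chr1:78099746-78100281), which encodes a paired-domain factor of muscle precursors and neural crest, and was the largest fold change upward among the members. The values were 1.39, 0.869 and 0.987 CPM in young and 3.43, 2.55, 2.57 and 1.91 CPM in aged samples. The ages did not overlap, at a low level (log2 fold change 1.32 ± 0.36, SE, edgeR adjusted p = 0.0481). The decrease lay in an intron of Pax7 (chr4:139790725-139791946), the marker of muscle satellite cells, with 14.3, 6.27 and 6.74 CPM in young and 4.22, 2.94, 4.44 and 4.71 CPM in aged samples. Young replicate 1 stood far above the other young samples, and without it the log2 fold change moved from -1.14 ± 0.31 (SE, adjusted p = 0.0457) to -0.65 and no longer passed.

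Both promoter regions of the eye and islet factor Pax6, chosen after their values were seen, were lower in every aged sample without passing the test. The weaker one held 3.42, 4.38 and 4.44 CPM in young and 2.2, 1.57, 2.10 and 2.29 CPM in aged samples (adjusted p = 0.0559). The stronger one held 7.13, 8.47 and 8.88 CPM in young and 5.10, 4.71, 3.27 and 5.60 CPM in aged samples (adjusted p = 0.0651). In the thyroid and kidney factor Pax8, all 4 regions lay above 0 under each of 5 scalings, with a median log2 fold change of 0.37, but none passed, and the ages did not overlap at 1 of them. The strongest Pax region, in an intron of the kidney factor Pax2, was at a young mean of 14.3 ± 3.12 (SD, n = 3) against an aged mean of 12.3 ± 2.35 CPM (SD, n = 4).

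No region of the Lhx, sine oculis homologue and Tbx families passed the test. The median log2 fold change of the 10 Lhx regions was -0.12 (0.15 with offsets on region strength), and the promoter of Lhx2 stood at a young mean of 8.26 ± 1.27 (SD, n = 3) against an aged mean of 8.20 ± 3.81 CPM (SD, n = 4). The strongest Lhx region, an exon of the interneuron factor Lhx6, was at 37.2 ± 3.40 and 35.4 ± 5.60 CPM. The 3 regions of sine oculis homologues included the member promoter with the highest CPM per region, that of Six5, a gene next to the myotonic dystrophy locus, with 78.9 ± 11.9 and 90.1 ± 13.7 CPM and overlapping ages. Among the 9 Tbx regions, the promoter of the cardiac factor Tbx20 was at 6.94 ± 1.94 and 6.59 ± 1.24 CPM. The strongest, downstream of Tbx10, also covers the promoter of Nudt8 and was higher in every aged sample, with 52.9, 55.9 and 53.4 CPM in young and 64.6, 59.0, 73.5 and 72.9 CPM in aged liver (log2 fold change 0.32 ± 0.11, SE, adjusted p = 0.102).

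**Figure D4:**
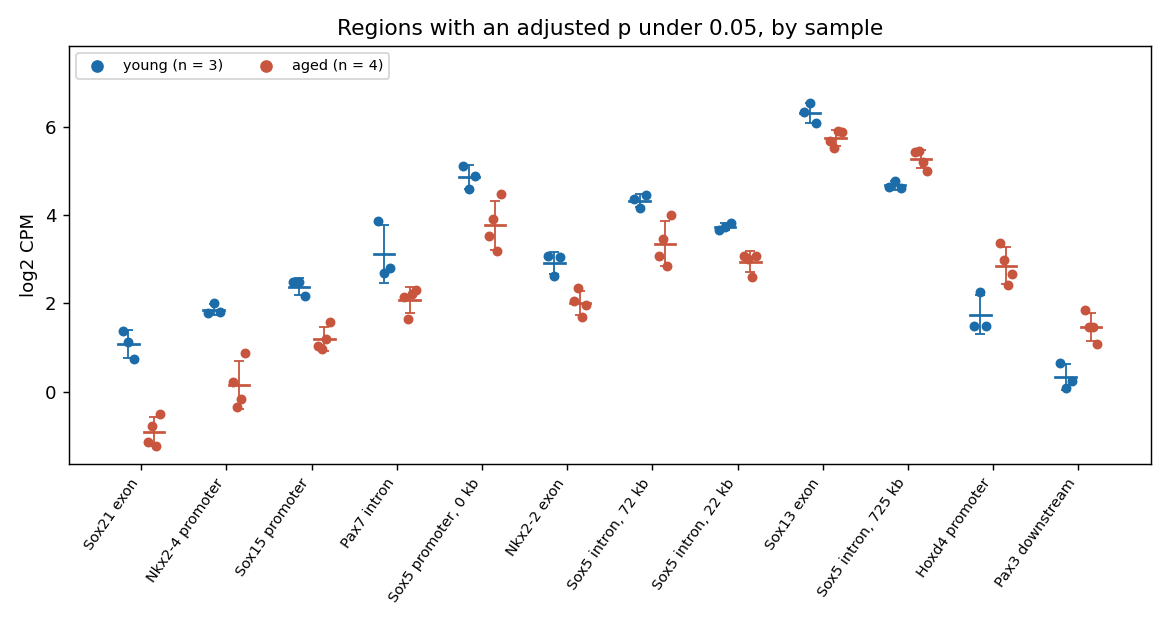
The log2 CPM of the 12 regions with an adjusted p under 0.05 is plotted for each young sample (blue, n = 3) and aged sample (orange, n = 4), with bars for the mean ± SD, in order of fold change and with the distance in kb from the most upstream start for Sox5. The ages do not overlap in any of the 12, and the exon of Sox21 is the weakest region and the exon of Sox13 the strongest.

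The member regions were weaker than most. Their median signal was 2.55 log2 CPM per region against 3.12 over all regions, at median lengths of 799 and 869 bp, and 74 of 114 lay below the median of all regions. Over all regions the fold change moved with strength, so members were set beside regions of the same quartile of mean log2 CPM. In the weakest quartile, the median log2 fold change was -0.32 for 41 members and also -0.32 for all 13920 regions of that quartile. In the second quartile the medians were -0.23 for 33 members and -0.18 for all, in the third -0.07 for 26 members and -0.01 for all, and in the strongest 0.14 for 14 members and 0.21 for all. These differences were not tested.

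The members were also richer in CpG dinucleotides. Their median CpG observed over expected was 0.367 against 0.247 over all regions, and 38 of 114 (33.3%) were CpG-rich against 16.6%. The median log2 fold change of the 38 CpG-rich members was -0.26, with 3 decreased and 0 increased. Of the 9255 CpG-rich regions in all, 2.29% decreased and 3.70% increased, with a median of 0.10 (the members' median was below 0 under each of 4 other scalings as well). CpG-rich members were weak, at a median of 2.27 log2 CPM against 5.0 for all CpG-rich regions. The 3 that decreased were all among the 16 CpG-rich members in the weakest quartile, where 12.4% of all 686 CpG-rich regions decreased. In that quartile the 16 members had a median of -0.59 and the 686 regions one of -0.56, and within the strongest, the 7 CpG-rich members had 0.26 and all 5987 had 0.21. At the promoters of members, 3 of 34 regions decreased and 1 increased, with a median of -0.24 that shrank to -0.09 with offsets on region strength. An annotated start lay inside 30 of the 34, but not inside the decreased regions of Sox15 and Nkx2-4. Over all 15422 promoter regions 2.06% decreased and 4.48% increased, with a median of 0.09, but member promoters were weaker, at a median of 2.57 log2 CPM against 4.76.

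**Figure D5:**
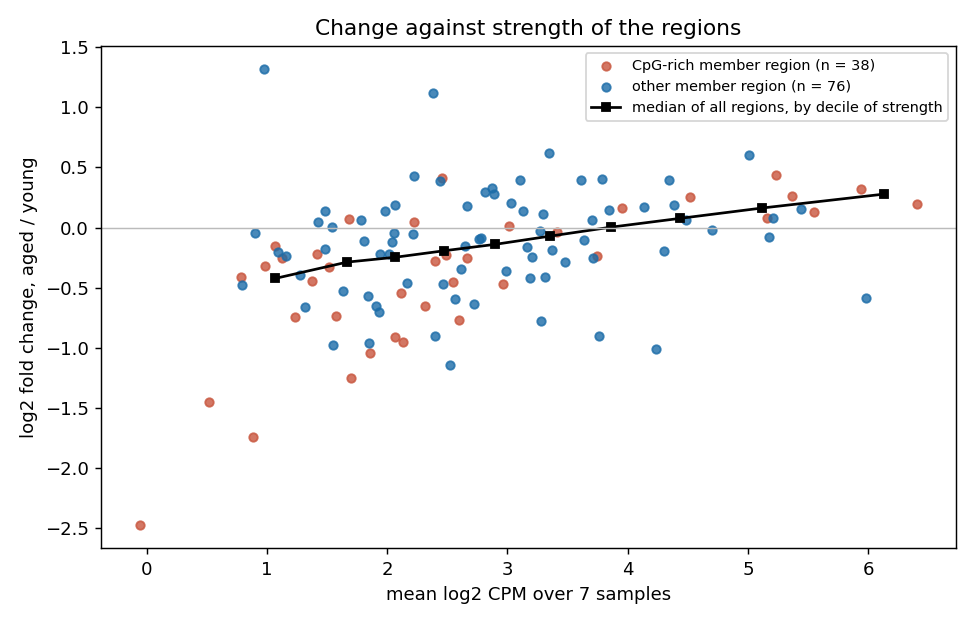
The log2 fold change (aged over young) of each member region is plotted against its mean log2 CPM over the 7 samples, in orange for the 38 CpG-rich members and in blue for the other 76, with the median of all regions in each decile of strength as a black line. The black line runs from -0.42 in the weakest decile upward past 0, and 26 of the 38 CpG-rich members lie below 0.

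In the promoter windows of RefSeq (GRCm38.p6, 250 bases before to 50 after the start), 72 of the 104 genes were matched by symbol, with 90 windows. The median window held 16 CpG dinucleotides against 7 over all 32851 windows. Short motifs were searched on both strands. The homeodomain core TAATTA occurred in 4.44% of the members' windows and 5.29% of all, the SOX core AACAAT in 6.67% and 10.7%, the T-box element AGGTGTGA in 1.11% and 1.28%, the TATA box TATAAA in 11.1% and 13.6%, and the CCAAT box in 47.8% and 37.4%. None of these motifs contains another.

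Promoters of the genes that regulate these families were read from a list of Polycomb, Trithorax and TALE cofactor genes with Ctcf and Rad21. Of 48 genes 46 had a promoter region, and the strongest one of each gene was read. Their median log2 fold change was 0.14, against 0.09 over all promoter regions and 0.21 over the strongest quartile of all regions. Of the 46, 2 (4.35%) increased and 0 decreased, a share near the 4.48% of all promoter regions. One was Phf19, a subunit that guides Polycomb repressive complex 2, whose promoter had a young mean of 131 ± 28.0 (SD, n = 3) and an aged mean of 196 ± 17.9 CPM (SD, n = 4; log2 fold change 0.59 ± 0.14, SE, edgeR adjusted p = 0.0324). The other was Pknox1, a TALE homeodomain partner of Hox and Pbx proteins, from 119 ± 23.9 to 177 ± 14.5 CPM (log2 fold change 0.57 ± 0.14, SE, adjusted p = 0.0307). None of the 18 genes of Polycomb repressive complex 1 passed. Of the 11 genes of Polycomb repressive complex 2, 8 lay above 0, with a median of 0.23. For complex 1 it was 12 of 18, with a median of 0.06. Over all promoter regions, 9421 of 15422 lay above 0.

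Marker genes were used to check the tissue and the other cells it holds. All 10 hepatocyte markers had regions, 81 in number, with a summed level of 3023 to 3654 CPM in young and 3148 to 4138 CPM in aged samples, of which 2 increased and 1 decreased (median log2 fold change 0.00). All 8 markers of sinusoidal endothelium had regions, 40 in number, at 309.9 to 359.1 CPM in young and 264.6 to 405.4 CPM in aged samples, with 1 decreased, at Erg, and a median of -0.20. For stellate cells, 5 of 8 markers had regions, at 38.0 to 42.9 CPM in young and 22.4 to 39.2 CPM in aged samples, with none at Des, Dcn and Acta2. For Kupffer cells it was 3 of 8, at 69.9 to 95.1 and 59.2 to 81.9 CPM, with none at Adgre1, Cd5l, Marco, Vsig4 and Timd4. None of the 6 Kupffer regions passed, and their median log2 fold change was -0.68, with gene medians of -0.72 for Clec4f, -0.71 for Csf1r and 0.01 for Cd68. For cholangiocytes it was 3 of 6, at 143 to 150 and 144 to 163 CPM, with none at Krt19, Krt7 and Cftr. Of the lymphocyte markers only Cd79a had a region, at 65.4 to 70.0 and 79.8 to 98.6 CPM, with none at Ptprc or Cd3e. None of the stellate, cholangiocyte and lymphocyte regions passed, at medians of -0.13, -0.05 and 0.35. The part of these cells in the changes at member regions was not tested.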

How the data were processed

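The authors deposited raw counts of ATAC-seq reads per consensus region, without normalization. Per the labels and the study's methods, reads were trimmed (cutadapt 1.13), aligned to GRCm38 (Bowtie2 2.4.1), filtered for mapping quality, PCR duplicates and mitochondrial reads, peaks were called per library (MACS2 2.2.7), and featureCounts counted reads in those regions where 2 or more libraries had a peak. Samples were grouped by the age in the labels. Aged and young samples were compared by the quasi-likelihood test of edgeR 4.0.16 (R 4.3.3) after TMM normalization, without covariates, with Benjamini-Hochberg adjustment across all 55680 regions at 0.05. CPM are TMM-normalized, and log2 CPM used a prior count of 2. Regions were annotated with GENCODE M21, and none of the 114 had a near-identical copy elsewhere (minimap2 2.31, 80% coverage, 95% identity). Fits on simulated counts recovered 63% of 2-fold and 100% of 4-fold changes, with 4.12% of 170 calls false. The changes were planted only in better-covered regions, and the simulated spread followed the trend over all regions. These rates therefore do not cover the weakest members. Pairs of samples of one age differed by more than sampling noise (chi-square per degree of freedom 2.40 to 6.07).

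The members, lists and tests were chosen with earlier results of these data known. Named are the regions that passed the test, the strongest region of each family, the strongest promoter region of members with a known role in liver, vessels or blood, and regulators that passed. Alternatives were DESeq2 1.42.0, limma 3.58.1 (voom), total counts, loess offsets (span 0.3) on GC content or on mean abundance, filters, thinning, a replicate block, summing pairs of aged samples, leaving out each sample, a threshold of 0.01 and promoter regions only. Some member and marker genes are counted but not reported here by name.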

Additional observations from a re-analysis of the deposited data

Results flagged for a closer look

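Single samples standing apart within the aged group were sought in 34 values of the named regions by Dixon's criterion, which chance meets in about 1 of 20 groups, and 3 values met it. In the Sox5 intron region at 22.5 kb from the most upstream start, aged replicate 3 was at 2.592 log2 CPM and the other aged samples at 3.007 to 3.082. In the internal promoter region of Sox5, aged replicate 4 was at 5.223 log2 CPM and the others at 5.587 to 5.621. In the promoter region of Sox17, aged replicate 4 was at 3.060 log2 CPM and the others at 2.058 to 2.198. The causes were not tested.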

How the results depend on the processing

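All 12 regions that passed the test kept their direction in each alternative that tested them, and each passed in 5 to 17 of 21 or 22 alternatives. With offsets on mean abundance, those of Pax3, Sox13 and Hoxd4 still passed.

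The count of 12 became 3 with offsets on mean abundance, 4 with at least 10 counts in every sample (88 regions), 7 with thinned counts, 4 at promoters only and 0 at an adjusted p under 0.01 (30 at an unadjusted p under 0.05, beside 13699 of all 55680 regions). Of all regions tested, 1.22%, 2.80% and 3.44% passed with those offsets, that filter and thinning, against 5.74% in the main fit. With aged samples summed in pairs the count of 12 became 6 for 1 and 2, 2 for 1 and 3, and 5 for 2 and 3. The shares of all regions there were 4.24%, 1.73% and 3.24%. The count ran from 0 to 16 when each sample was left out (0.338% to 7.60% of all regions). The 3 increases became 6 with GC offsets, 1 with each of the filter of 10 counts, thinning and promoters only, 0 with total counts or a threshold of 0.01, 1 with aged 1 and 2 or 2 and 3 summed, 0 with aged 1 and 3 summed, and 0 to 4 without single samples. Of all regions tested, 10.2% increased with GC offsets, 1.11% with the filter, 1.54% with thinning and 0.975% with total counts, against 2.44% in the main fit. With those pairs summed it was 1.87%, 1.26% and 0.483%, and without single samples 0.0988% to 2.93%. The 9 decreases became 1 with abundance offsets, 3 with at least 10 counts or promoters only, 14 with total counts, 0 at 0.01, 5, 2, 4 and 15 with aged 1 and 2, 1 and 3, 2 and 3, and 2 and 4 summed, and 0 to 12 without single samples. Of all regions tested, 0.742% decreased with abundance offsets, 1.69% with the filter and 5.26% with total counts, against 3.30% in the main fit. With those pairs summed it was 2.37%, 1.24%, 1.99% and 4.63%, and without single samples 0.239% to 4.67%. DESeq2 gave 13 member regions in all and voom 13, beside 8.42% and 8.23% of all regions. The causes were not tested.

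The members' median of -0.17 became -0.054 with GC offsets, 0.035 with abundance offsets and -0.29 with total counts, while the median of all regions moved from -0.04 to 0.07, 0.01 and -0.15 in these fits. It was -0.11 with the filter of 10 counts and -0.24 at promoters only, and the Hox median became 0.059 with abundance offsets. Among regions that did not pass, signs turned near 0. Hoxa3 turned to 0.0054 (DESeq2), 0.014 (GC offsets), 0.059 (abundance offsets) and 0.053 (aged 1 and 2 summed), and without single samples ran from -0.14 to 0.10. Hoxb4 turned to -0.018 (aged 1 and 4 summed), -0.036 (aged 3 and 4), -0.020 (voom) and -0.074 (total counts), with -0.20 to 0.22 without single samples. Lhx2 turned to -0.12 (aged 1 and 4), -0.037 (aged 3 and 4), -0.026 (10 counts), -0.036 (thinned), -0.029 (voom) and -0.11 (total counts), with -0.34 to 0.19 without single samples. Abundance offsets also turned Six5 to -0.10, the internal promoter of Sox5 to -0.050, Sox12 to -0.091, the Sox13 promoter to -0.086 and Tbx20 to 0.077, total counts turned the Sox13 promoter to -0.036, and GC offsets turned Lhx6 to 0.11. Without single samples Sox12 ran from -0.037 to 0.26 and Tbx20 from -0.26 to 0.069.

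Same-numbered young and aged samples did not deviate together (r of -0.12, 0.06 and 0.03), and not every sample correlated best with its own number. The deviations within each group depend on one another, so these values cannot show whether samples shared a preparation. With the replicate number as a block, 15 member regions passed, 4 increased and 11 decreased, beside 7.32% of all regions. Aged replicate 4 is alone in its block there, so it adds nothing to the age effect in that fit. In the same fit Hoxb4 turned to -0.25, Lhx2 to -0.40 and Sox12 to -0.059.

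Depth limits the weakest regions, where a member held as little as 1 count in a library. Members with 10 or more counts in every library numbered 88 of 114.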

Other observations

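Another annotated promoter was shared by 11 member regions, which lay at that of a gene outside the families, and 1 of these passed the test, the region shared by Hoxd4 and Gm28230. At the region upstream of Sox6 that also covers a promoter of 1110004F10Rik, the values were 8.24, 9.11 and 10.4 CPM in young and 6.59, 6.28, 8.87 and 5.22 CPM in aged samples, with overlap and an edgeR adjusted p of 0.211. The promoter of Sox30, a factor of male germ cells, was CpG-rich and lower in every aged sample, with 5.09, 5.59 and 4.93 CPM in young and 3.69, 4.12, 2.57 and 3.82 CPM in aged liver, and did not pass (adjusted p = 0.195). At the promoter of Tbx18, a factor of heart and ureter development, the values were 2.59, 2.49 and 3.95 CPM in young and 1.84, 1.77, 1.40 and 1.78 CPM in aged samples (adjusted p = 0.167). These regions were chosen after their values were seen.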
